A study of Homo sapiens with 12 samples.

Results

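The PI3K, AKT and mTOR pathway genes described here are AKT1, AKT2, PIK3CA, PIK3CB, PIK3R1, PIK3R3, MTOR, DEPTOR and TSC1, which were chosen by gene name and make up 9 of the 58735 genes in the count table. They were measured by RNA-seq of C4.2B, a human prostate cancer cell line that descends from LNCaP and grows without androgen, and the list of names was drawn up with earlier results of these data known. All libraries come from this 1 line, in 4 arms of 3 libraries each. The DMSO arm received vehicle only, the AKTi arm received the AKT inhibitor ipatasertib at 0.25 μM, the EZH2i arm received the EZH2 inhibitor tazemetostat at 1 μM, and the combination arm received both agents at these doses. The EZH2i and combination cells had tazemetostat for 6 days before plating, whereas ipatasertib was present only for the last 24 hours, so the agents differ in length of exposure as well as in target. All arms spent those 24 hours in medium with 10% charcoal-stripped serum, which is low in steroid hormones, and the cells had been seeded in triplicate plates, so that the p-values measure the spread between plates, which may be technical.

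Class I PI3K is a dimer of a catalytic and a regulatory subunit that is recruited to activated growth factor receptors and their adaptors and makes the membrane lipid PIP3. PIP3 draws AKT to the membrane, where PDK1 and mTORC2 phosphorylate it. AKT then inactivates the TSC complex and so releases RHEB to activate mTORC1, and it keeps FOXO transcription factors out of the nucleus. EZH2 is the methyltransferase of Polycomb repressive complex 2, which silences genes through methylation of histone H3. The pathway is often activated in prostate cancer.

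The transcripts of the 9 genes moved in different directions. Levels are given as counts-per-million (CPM) after TMM scaling, which corrects for library size and composition. PIK3R1 and PIK3R3, the regulatory subunits, had the largest rises of the 9 in the EZH2i arm, 4.77-fold and 2.89-fold, and only PIK3R1 was still at that level in the combination. PIK3CA, the catalytic subunit p110α, rose in each treated arm and reached 3.41-fold in the combination. AKT1, the catalytic subunit PIK3CB (p110β) and MTOR, the kinase of both mTOR complexes, were lower in the combination than in DMSO, and TSC1, a subunit of the complex that restrains mTORC1, was higher. All 9 genes passed the filter on low counts. At a Benjamini-Hochberg adjusted p-value under 0.05 in the edgeR quasi-likelihood test, 6 of the 9 differed between AKTi and DMSO (5 higher, 1 lower), 7 between EZH2i and DMSO (5 higher, 2 lower) and 8 between the combination and DMSO (4 higher, 4 lower). Such changes were common across the transcriptome. Of the 16646 genes tested, 20.6% were higher and 21.9% lower in AKTi, 32.6% higher and 31.5% lower in EZH2i, and 38.0% higher and 35.2% lower in the combination. The share of the 9 genes that passed is therefore to be read against backgrounds that already take in a large part of all genes.

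**Figure D1:**
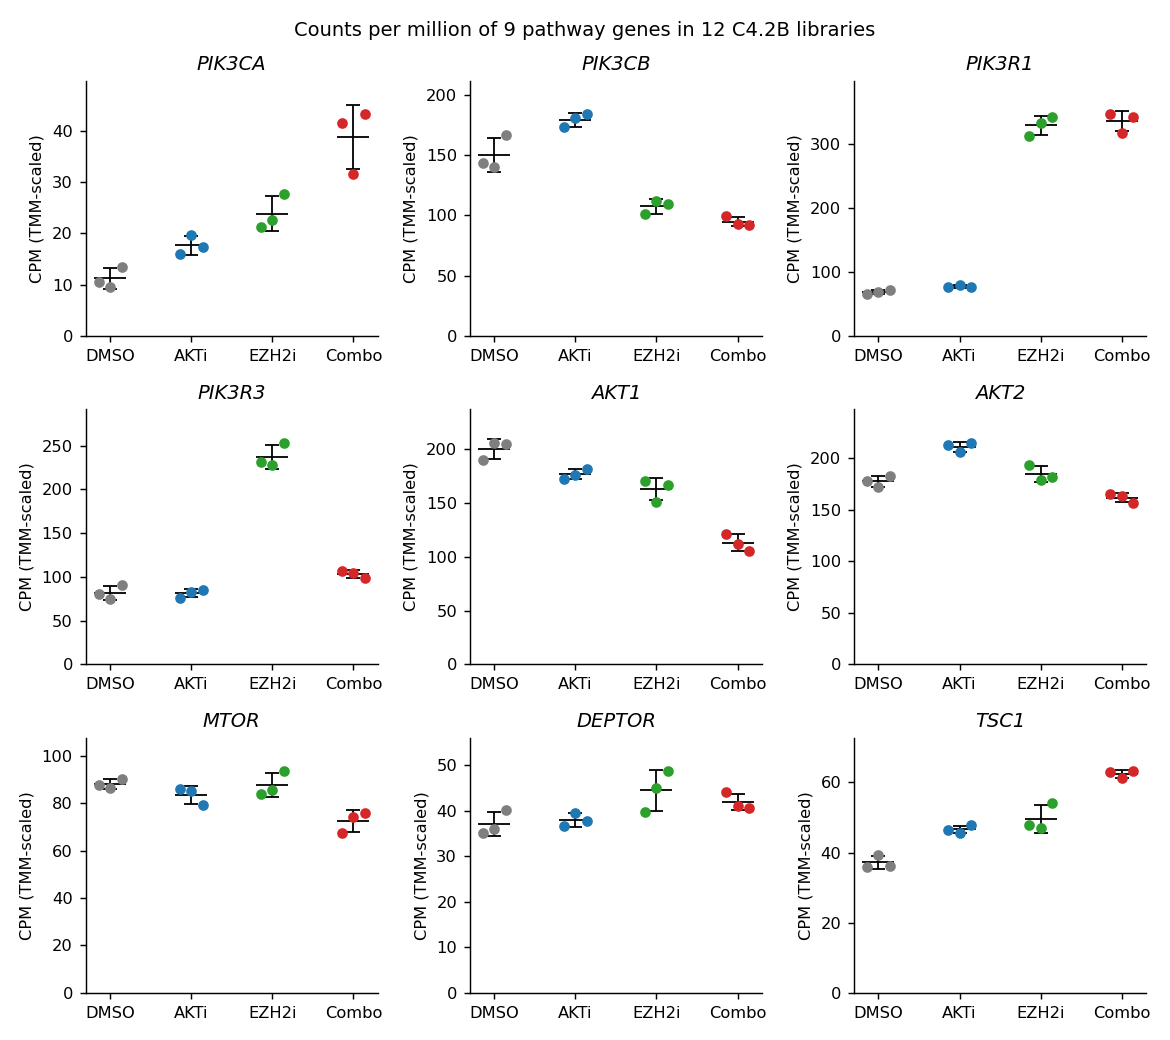
Expression of the 9 genes in each of the 12 libraries, as CPM after TMM scaling (vertical axes, each from 0), by arm (horizontal axes). Points are libraries, the horizontal mark is the mean of 3 libraries and the bars are the SD; the EZH2i and combination points of PIK3R1 lie between 312 and 346, whereas those of PIK3R3 lie between 228 and 253 in EZH2i and between 98.4 and 107 in the combination.

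The libraries held 14133755 to 22276417 counts each. For each pair of libraries of an arm, the chi-square averaged over genes was 2.63 to 8.09. This was above that of sampling noise, so all were kept as replicates. The summed level of 6 luminal prostate markers (KRT8, KRT18, EPCAM, KLK3, FOLH1 and HOXB13) was 3397 to 6516 CPM, so the markers of the labelled cell type were present. That sum itself differed between arms, at 3397 to 3512 CPM in DMSO, 4802 to 4915 with AKTi, 5209 to 5348 with EZH2i and 6334 to 6516 in the combination. KLK3, a secreted protease of the prostate, made up the larger part of that difference, at 1338 to 1389 CPM in DMSO and 3881 to 3980 in the combination. The other markers moved in both directions. KRT8 was above the DMSO range in every treated arm, and KRT18 was above it with EZH2i and in the combination. FOLH1 was above it with AKTi and in the combination, and HOXB13 with AKTi. EPCAM lay below the DMSO range in every treated arm, HOXB13 in the combination, FOLH1 with EZH2i and KRT18 with AKTi. The sum of 4 fibroblast markers was 4.36 to 7.001 CPM in DMSO, 4.27 to 6.40 with AKTi, 15.7 to 18.1 with EZH2i and 9.79 to 14.95 in the combination. Nearly all of it was COL1A1, and the defining markers COL1A2, DCN and LUM stayed at or under 0.468 CPM in every library. Of the endothelial markers, PECAM1 and CDH5 reached at most 0.304 CPM and VWF accounted for a sum of 2.16 to 7.38, and the leukocyte markers PTPRC, CD3E and CD68 summed to at most 1.35. In bulk libraries, a change of RNA per cell and a change in the mix of cells cannot be told apart.

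PIK3R1 and PIK3R3 encode the p85α and p55γ families of regulatory subunits, which stabilise the catalytic subunit and dock it on phosphorylated receptors and adaptors. Their promoters are shown because these genes moved together with EZH2i and apart in the combination. That of PIK3CA is shown because it was the only window read that held a forkhead core, and DEPTOR was not read. Each run is 5′ to 3′ on the strand of the gene and covers 250 bases before to 50 bases after a RefSeq transcript start (GRCh38.p14). Capitals mark the forkhead core GTAAACA, read on either strand, which is bound by forkhead factors in general, FOXO factors among them. Where the table holds several starts for a gene, the one nearest to the gene's start in the count table is shown. The PIK3R1 window is chr5:68215506-68215805 on the + strand, the PIK3R3 window chr1:46132987-46133286 on the - strand and the PIK3CA window chr3:179148107-179148406 on the + strand.
PIK3R1: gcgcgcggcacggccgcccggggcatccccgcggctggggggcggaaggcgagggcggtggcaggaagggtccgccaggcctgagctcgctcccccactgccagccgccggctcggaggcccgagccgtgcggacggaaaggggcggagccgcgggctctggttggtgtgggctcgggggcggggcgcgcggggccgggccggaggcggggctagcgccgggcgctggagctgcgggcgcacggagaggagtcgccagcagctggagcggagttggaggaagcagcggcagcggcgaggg
PIK3R3: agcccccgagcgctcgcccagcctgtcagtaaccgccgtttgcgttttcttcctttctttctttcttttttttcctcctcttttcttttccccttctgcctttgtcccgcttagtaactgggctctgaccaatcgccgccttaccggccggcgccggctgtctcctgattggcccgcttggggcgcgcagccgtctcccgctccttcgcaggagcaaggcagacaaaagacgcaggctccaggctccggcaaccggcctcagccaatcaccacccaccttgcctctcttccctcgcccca
PIK3CA: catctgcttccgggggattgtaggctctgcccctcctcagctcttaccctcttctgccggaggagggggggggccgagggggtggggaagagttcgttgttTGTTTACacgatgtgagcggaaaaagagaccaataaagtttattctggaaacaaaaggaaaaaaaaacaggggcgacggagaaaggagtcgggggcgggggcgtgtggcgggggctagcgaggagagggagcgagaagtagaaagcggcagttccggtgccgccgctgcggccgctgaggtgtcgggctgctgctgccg

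These windows hold 42 CpG dinucleotides for PIK3R1, 23 for PIK3R3 and 22 for PIK3CA, against a median of 14 over all 35116 promoter windows in the RefSeq table. The other windows of the regulatory genes, further from that start, hold 23, 3 and 3 for PIK3R1 and 23, 23, 11, 5 and 4 for PIK3R3, so that some lie far below the median. Of the other genes read, the window nearest to the gene's start holds 49 for AKT1, 39 for PIK3CB, 27 for AKT2, 25 for TSC1 and 16 for MTOR. A high CpG count was thus not particular to the genes that rose with EZH2i. In the PIK3CA window the core begins at position -149 from the transcript start, as TGTTTAC on the strand of the gene. The 19 windows of 8 of the 9 genes were read, and DEPTOR was left out before the search. The forkhead core was found in 1 of the 19, against 3.42% of all promoter windows, and the MYC-type E-box CACGTG in 0 of the 19, against 7.26% of all windows. A match is a string of letters and not a measured site.

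PIK3R1 (chromosome 5, 68215720 to 68301821, + strand, hg38) was at 65.7, 68.3 and 72.5 CPM in the DMSO libraries and at 75.9, 80.2 and 76.1 in AKTi. It reached 312, 332 and 342 CPM in EZH2i and 346, 318 and 343 in the combination. All libraries with tazemetostat lie far above all libraries without it, and the ranges of EZH2i and the combination overlap. The log2 fold change was 2.26 ± 0.06 (SE, n = 3 per arm) for EZH2i and 2.28 ± 0.06 for the combination against DMSO, with edgeR adjusted p-values of 1.63e-27 and 1.8e-28. Between the combination and EZH2i it was 0.03 (95% interval -0.08 to 0.14, adjusted p = 0.709). The AKTi rise of 0.17 (adjusted p = 0.0272) was small, and in 5 of the 12 fits that leave out 1 library it did not pass, at 0.13 without DMSO A, 0.13 without DMSO B, 0.12 without AKTi B, 0.16 without AKTi C and 0.15 without EZH2i C. It also did not pass when genes with at least 1 count in total were kept (0.16).

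PIK3R3 (chromosome 1, 46040140 to 46133036, - strand) started at a similar level but answered the second agent differently. Its libraries were at 80.4, 74.6 and 90.5 CPM in DMSO, at 76.4, 82.3 and 85.2 with AKTi, at 231, 228 and 253 with EZH2i and at 107, 105 and 98.4 in the combination. The 3 combination libraries lie above the DMSO range and far below the EZH2i range. PIK3R3 rose by 1.53 ± 0.06 in log2 with EZH2i (adjusted p = 2.28e-21) and by 0.33 ± 0.07 in the combination (adjusted p = 2.89e-05), a value that was 0.53 by library size only and 0.52 by upper quartile. For AKTi alone the value was -0.01 (95% interval -0.15 to 0.12), and the combination was lower than EZH2i by 1.20 in log2 (adjusted p = 3.61e-18). The annotation GENCODE v44 has a readthrough gene, AL358075.4, on the same strand that shares 1292 of the 7397 exonic bases of PIK3R3 (17.5%). Reads on shared bases are left uncounted by HTSeq in its default mode, so the level of PIK3R3 may be understated, which was not tested, and the readthrough gene itself had 0 counts in all libraries.

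**Figure D2:**
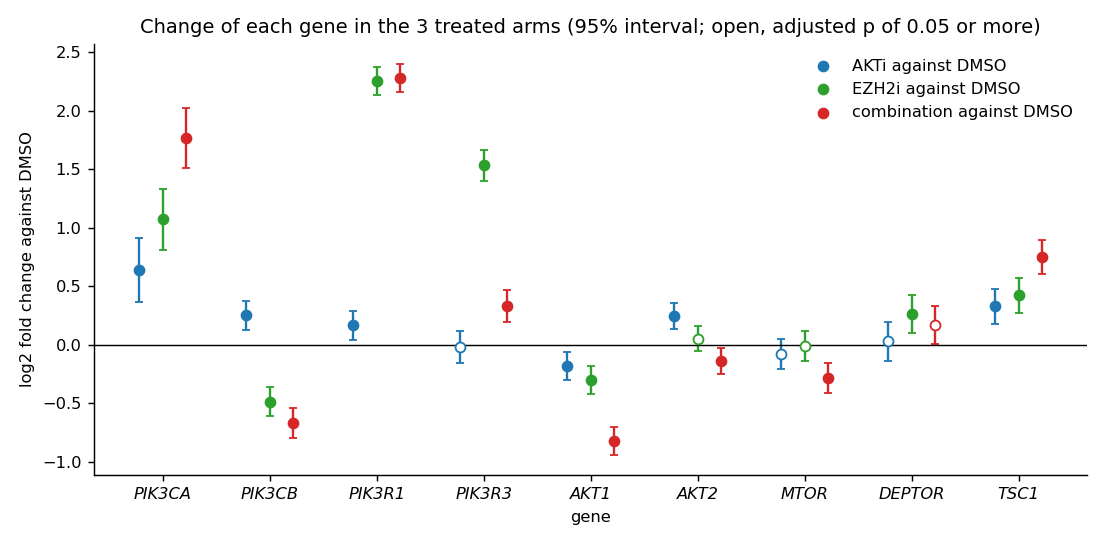
Log2 fold change of each gene against DMSO (vertical axis) for AKTi, EZH2i and the combination, with 95% intervals from edgeR; open points have an adjusted p-value of 0.05 or more. PIK3R1 stands at 2.26 and 2.28 in EZH2i and the combination, while PIK3R3 stands at 1.53 and 0.33; the combination value of AKT2 (-0.14) turns positive, at 0.06, when libraries are scaled by library size only.

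The catalytic subunits PIK3CA and PIK3CB moved in opposite directions with EZH2i and in the combination. PIK3CA (chromosome 3, 179148114 to 179240093, + strand) was at 10.6, 9.59 and 13.5 CPM in DMSO, 16.1, 19.7 and 17.3 with AKTi, 21.2, 22.7 and 27.7 with EZH2i and 41.5, 31.7 and 43.2 in the combination. The 4 ranges do not overlap, and the order is DMSO, AKTi, EZH2i, combination. The log2 fold change against DMSO was 0.64 ± 0.13 for AKTi (adjusted p = 0.000185), 1.07 ± 0.13 for EZH2i (adjusted p = 3.2e-09) and 1.77 ± 0.13 for the combination (adjusted p = 2.53e-15). The combination also exceeded EZH2i, by 0.69 (adjusted p = 4.01e-06), and AKTi, by 1.13 (adjusted p = 2.17e-10). EZH2i exceeded AKTi by 0.44 (adjusted p = 0.00323), a difference that without EZH2i library C was 0.29 and no longer passed (adjusted p = 0.0835). In GENCODE v44, KCNMB3 lies on the opposite strand and shares 3403 of the 17189 exonic bases of PIK3CA (19.8%). The deposited length of PIK3CA is 9494 bases, so the share in the annotation counted on is not known. KCNMB3 had 10 to 56 counts per library, and whether counting used the strand is not given in the sources used here.

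PIK3CB (chromosome 3, 138652699 to 138834938, - strand) encodes p110β, a catalytic subunit that can also be activated by G protein-coupled receptors. It was at 144, 140 and 166 CPM in DMSO, 173, 180 and 184 with AKTi, 101, 112 and 109 with EZH2i and 99.3, 92.7 and 92.4 in the combination. Every AKTi library lies above the DMSO range and every library with tazemetostat below it. The log2 fold change was 0.25 ± 0.06 for AKTi (adjusted p = 0.001), -0.48 ± 0.06 for EZH2i (adjusted p = 1.71e-08) and -0.66 ± 0.06 for the combination (adjusted p = 7.17e-12). The difference of -0.18 between the combination and EZH2i passed (adjusted p = 0.0182) but not when EZH2i B (-0.15), EZH2i C (-0.15), combination B (-0.17) or combination C (-0.16) was left out, nor under scaling by library size only (-0.13) or by upper quartile (-0.12).

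To compare genes with each other, counts were divided by the deposited gene length and rescaled to transcripts-per-million (TPM). On this scale the 3 class I catalytic genes with counts, PIK3CA, PIK3CB and PIK3CD (p110δ), changed in their proportions. PIK3CB made up 57.9% ± 2.27 (SD, n = 3) of their sum in DMSO, 52.8% ± 0.0434 with AKTi, 39.7% ± 0.879 with EZH2i and 33.0% ± 0.527 in the combination. PIK3CD made up 38.5% ± 2.72, 42.9% ± 0.398, 53.0% ± 1.34 and 55.8% ± 2.02 in the same order. PIK3CA went from 3.57% ± 0.449 in DMSO to 4.31% ± 0.396, 7.30% ± 0.917 and 11.2% ± 1.77, and so was the least abundant of the 3 by TPM in every arm. Within libraries, the log2 ratio of PIK3CB to PIK3CA was 4.03 ± 0.12 in DMSO, 3.62 ± 0.13 with AKTi, 2.45 ± 0.17 with EZH2i and 1.58 ± 0.23 in the combination, with no overlap between arms.

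The regulatory pair changed places. PIK3R1 was 36.7% ± 1.68 of the TPM sum of PIK3R1 and PIK3R3 in DMSO, 39.6% ± 1.35 with AKTi, 48.8% ± 1.09 with EZH2i and 69.1% ± 1.49 in the combination. The summed TPM of PIK3R1 and PIK3R3 divided by that of the 3 catalytic genes was 0.529 ± 0.0114 in DMSO, 0.421 ± 0.00562 with AKTi, 1.82 ± 0.0718 with EZH2i and 1.24 ± 0.0258 in the combination. PIK3R2 (p85β) could not be included. It had 0 to 3 counts per library, and 3942 of its 5163 exonic bases (76.4%) are shared with AC007192.1, a gene on the same strand that had 0 to 12 counts. With the length of the Ensembl canonical transcript in place of the deposited one, PIK3R1 went from 40.4% in DMSO to 52.6% with EZH2i and 72.2% in the combination, and PIK3CB from 59.9% to 35.1%. These ratios are of transcripts, and protein was not measured here.

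**Figure D3:**
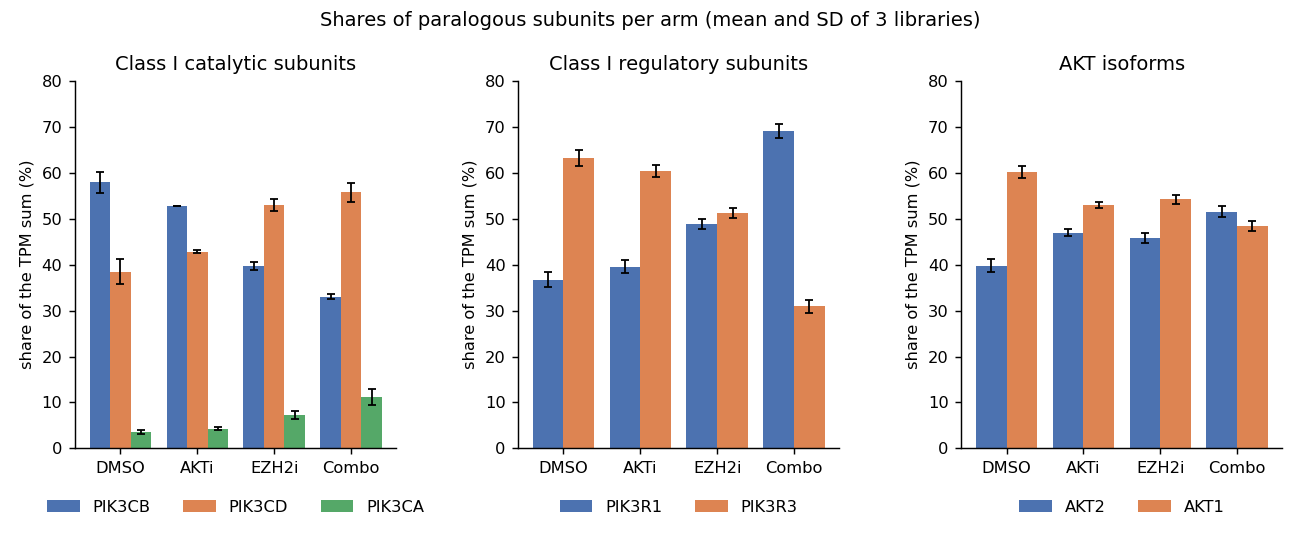
Share of each subunit or isoform in the TPM sum of its group (vertical axes, percent) by arm; bars are means and error bars the SD of 3 libraries. PIK3CB goes from 57.9% to 33.0% of the catalytic genes between DMSO and the combination, PIK3R1 goes from 36.7% to 69.1% of the regulatory pair, and AKT2 from 39.8% to 51.5% of AKT1 and AKT2.

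AKT1 and AKT2 encode isoforms of the AKT kinase, and both are targets of ipatasertib. AKT1 (chromosome 14, 104769349 to 104795751, - strand) was at 189, 206 and 204 CPM in DMSO, 172, 176 and 182 with AKTi, 170, 151 and 167 with EZH2i and 121, 112 and 105 in the combination. All treated libraries lie below the DMSO range, and the combination lies below every other library. The log2 fold change was -0.30 ± 0.06 for EZH2i (adjusted p = 3.4e-05) and -0.82 ± 0.06 for the combination (adjusted p = 5.78e-15). The EZH2i value was -0.15 by library size only and -0.18 by upper quartile and passed in both. The value for AKTi was -0.18 (adjusted p = 0.0147) and did not pass without AKTi library A (-0.16), or under scaling by library size only or by upper quartile (-0.12 in each). The combination was lower than EZH2i by 0.52 (adjusted p = 2.89e-09) and lower than AKTi by 0.64 (adjusted p = 8.39e-12).

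AKT2 (chromosome 19, 40230317 to 40285536, - strand) was at 178, 173 and 183 CPM in DMSO, 212, 206 and 215 with AKTi, 194, 178 and 181 with EZH2i and 165, 163 and 157 in the combination. The AKTi libraries lie above the other 3 arms and the combination libraries below them, while EZH2i and DMSO overlap. AKT2 rose by 0.25 ± 0.05 with AKTi (adjusted p = 0.000245), and the value for EZH2i was 0.05 (95% interval -0.06 to 0.16). By library size only the EZH2i value was 0.20 and by upper quartile 0.17, and both passed. In the combination it was lower than in AKTi by 0.38 (adjusted p = 8.06e-08) and than in EZH2i by 0.19 (adjusted p = 0.00339), and these differences still passed at -0.25 by library size only and at -0.12 by upper quartile, respectively. Against DMSO the combination value of -0.14 (adjusted p = 0.0209) depended on the processing. It was not past the threshold without DMSO C or combination C (-0.12 in each) or when 10 counts were required in every library (-0.07), and it was 0.06 by library size only and 0.05 by upper quartile. Under those scalings the median of all genes moved from 0.06 to 0.26 and 0.25, so AKT2 stood below that median under each of them.

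The log2 TPM ratio of AKT2 to AKT1, which does not depend on library scaling, was -0.60 ± 0.08 in DMSO, -0.17 ± 0.04 with AKTi, -0.24 ± 0.06 with EZH2i and 0.09 ± 0.07 in the combination. None of the 5 arm pairs compared overlapped in this ratio. AKT2 made up 39.8% ± 1.35 of the sum of AKT1 and AKT2 in DMSO and 51.5% ± 1.17 in the combination. Which of them is the more abundant depends on the gene length used. With the length of the Ensembl canonical transcript, the ratio was -1.00 ± 0.08 in DMSO and -0.31 ± 0.07 in the combination and the share of AKT2 33.4% ± 1.25 and 44.7% ± 1.16, so that AKT1 stayed above AKT2 in every arm, while the differences between arms in the log2 ratio do not depend on the length.

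MTOR (chromosome 1, 11106535 to 11262507, - strand) was at 87.6, 86.4 and 90.1 CPM in DMSO, 86.0, 85.0 and 79.2 with AKTi, 83.7, 85.5 and 93.4 with EZH2i and 67.3, 74.1 and 75.8 in the combination. The AKTi libraries lie just below the DMSO range, those of EZH2i overlap it, and the combination lies below all other libraries. The log2 fold change was -0.28 ± 0.06 for the combination (adjusted p = 0.000152), against -0.08 (95% interval -0.21 to 0.05) for AKTi and -0.01 (-0.13 to 0.12) for EZH2i. By library size only it was -0.09 and by upper quartile -0.10 for the combination, and neither passed. The difference from AKTi of -0.21 (adjusted p = 0.00566) did not pass without combination library A (-0.16), by library size only (-0.07), by upper quartile (-0.08) or with 10 counts required in every library (-0.14), whereas the difference from EZH2i of -0.28 (adjusted p = 0.000416) passed under each alternative.

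DEPTOR (chromosome 8, 119873717 to 120050913, + strand) encodes a subunit that inhibits mTOR in both complexes. It was at 35.1, 36.1 and 40.2 CPM in DMSO, 36.7, 39.7 and 37.8 with AKTi, 39.8, 45.0 and 48.7 with EZH2i and 44.1, 41.2 and 40.7 in the combination. The arms lie close together, with EZH2i overlapping DMSO and the combination just above it. Only EZH2i passed against DMSO, at 0.26 ± 0.08 (adjusted p = 0.00477), and it did not pass without DMSO B (0.19) or EZH2i C (0.15) and was 0.41 by library size only. The combination gave 0.17 (95% interval 0.01 to 0.34, adjusted p = 0.0532), just short of the threshold. It passed by library size only (0.37), by upper quartile (0.36), with 10 counts required in every library (0.24), without DMSO C (0.23) and with a replicate block (0.18). For AKTi the value was 0.03 (-0.14 to 0.20). The log2 ratio of DEPTOR to MTOR was 0.96 ± 0.08 in DMSO and 1.42 ± 0.15 in the combination, without overlap.

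TSC1 (chromosome 9, 132891348 to 132946874, - strand) encodes hamartin, which holds the TSC complex together. It was at 36.0, 39.2 and 36.3 CPM in DMSO, 46.4, 45.7 and 47.8 with AKTi, 47.8, 47.0 and 54.3 with EZH2i and 62.9, 61.2 and 63.2 in the combination. Every treated library lies above the DMSO range, and the combination lies above all others. TSC1 rose by 0.33 ± 0.07 with AKTi (adjusted p = 0.000407), 0.42 ± 0.07 with EZH2i (adjusted p = 3.95e-06) and 0.75 ± 0.07 in the combination (adjusted p = 1e-11). Its partner TSC2, which carries the GTPase-activating domain, moved otherwise, at 83.1 ± 0.493 CPM in DMSO, 110 ± 1.301 with AKTi, 84.2 ± 1.37 with EZH2i and 81.5 ± 2.26 in the combination. The log2 TPM ratio of TSC1 to TSC2 was -1.00 ± 0.06 in DMSO, -1.08 ± 0.04 with AKTi, -0.61 ± 0.12 with EZH2i and -0.23 ± 0.06 in the combination.

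The 5 ratios were compared over 5 arm pairs, which gives 25 exact two-sided permutation tests of 3 libraries against 3. In 23 of them the arms did not overlap and p was 0.1, the smallest value this design allows, or 0.109 after adjustment over the 25. The tests therefore cannot reach 0.05, and the ratios are given as descriptions of the libraries. The other 2 were PIK3R3 to PIK3R1 and DEPTOR to MTOR in AKTi against DMSO, which overlapped (exact permutation p = 0.2).

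Whether the agents act on these genes independently on the log2 scale was tested as an interaction, which is the combination change less the sum of the changes with each agent alone. It passed for 4 of the 9 genes, all with a negative sign, and across all genes 10.7% had a positive and 17.5% a negative interaction. PIK3R3 had the value furthest from 0, -1.19 ± 0.09 (adjusted p = 1.31e-12), followed by AKT2 at -0.44 ± 0.08 (adjusted p = 2.29e-05), PIK3CB at -0.43 ± 0.09 (adjusted p = 0.000242) and AKT1 at -0.35 ± 0.08 (adjusted p = 0.00161). In each of these genes the combination was lower than the sum of the single-agent changes. For PIK3CA the interaction was 0.06 (95% interval -0.30 to 0.42), for TSC1 -0.00210 (-0.21 to 0.20), for PIK3R1 -0.14 (-0.31 to 0.03), for DEPTOR -0.12 (-0.35 to 0.11) and for MTOR -0.20 (-0.38 to -0.01, adjusted p = 0.0998), which passed without EZH2i A (-0.26). The intervals for DEPTOR and MTOR reach the value of AKT1.

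**Figure D4:**
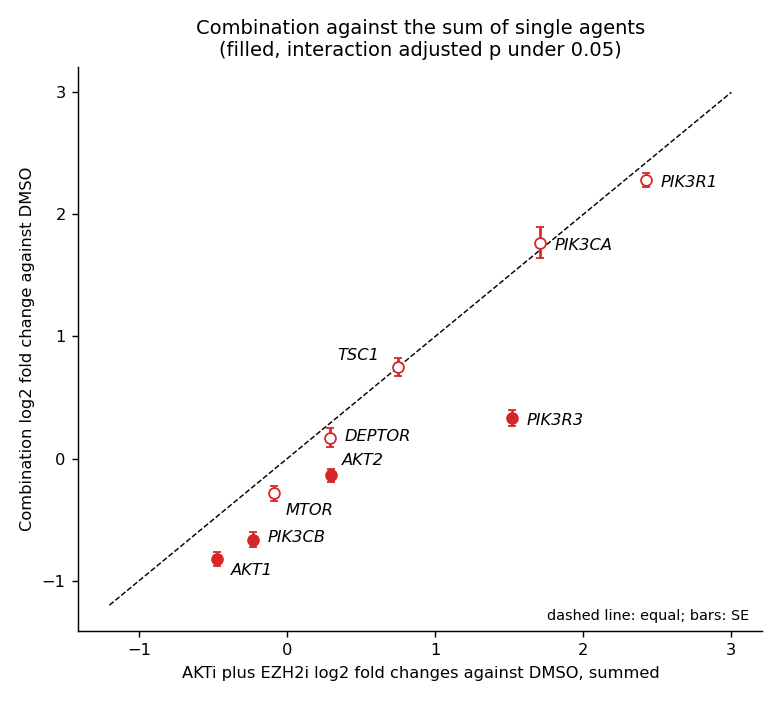
Combination log2 fold change against DMSO (vertical axis, with SE) plotted on the sum of the AKTi and EZH2i changes (horizontal axis) for the 9 genes; the dashed line is equality and filled points have an interaction with an adjusted p-value under 0.05. PIK3R3 lies 1.19 below the line, AKT1, AKT2 and PIK3CB lie 0.35 to 0.44 below it, and PIK3CA and TSC1 lie on it within their errors.

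Among the direct comparisons of treated arms, the combination differed from AKTi in 8 genes (PIK3CA, PIK3R1, PIK3R3 and TSC1 higher, AKT1, AKT2, PIK3CB and MTOR lower), against 32.1% of all genes higher and 32.1% lower. It differed from EZH2i in 7, with PIK3CA and TSC1 higher and AKT1, AKT2, PIK3CB, PIK3R3 and MTOR lower, against 21.1% and 25.7% of all genes. EZH2i differed from AKTi in 6, with PIK3R1, PIK3R3, PIK3CA and DEPTOR higher and PIK3CB and AKT2 lower, against 25.4% and 25.1%. The EZH2i against AKTi value of DEPTOR, 0.23, did not pass without AKTi A (0.18), AKTi C (0.20) or EZH2i C (0.13). That of PIK3CA did not pass without EZH2i C, as given above, and that of AKT2, -0.19, did not pass by library size only (-0.11). Some values passed only under an alternative. For EZH2i against AKTi these were MTOR (0.07, and 0.16 by library size only), TSC1 (0.09, and 0.18 by library size only) and AKT1 (-0.12, and -0.15 without DMSO B, -0.16 without AKTi A, -0.18 without EZH2i A and -0.17 without EZH2i C). For the combination against AKTi it was DEPTOR (0.14), at 0.28 by library size only, 0.27 by upper quartile and 0.21 with 10 counts required in every library. These comparisons share arms with each other and with those against DMSO and are not independent of them.

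By TPM, the order of the 9 genes in DMSO was PIK3CB (62.7 ± 7.89), AKT1 (58.6 ± 3.38), DEPTOR (46.5 ± 4.70), AKT2 (38.8 ± 2.28), PIK3R3 (36.3 ± 4.63), MTOR (23.8 ± 1.22), PIK3R1 (21.0 ± 1.59), TSC1 (6.92 ± 0.245) and PIK3CA (3.89 ± 0.828). The library ranges of PIK3CB and AKT1 overlap, as do those of AKT2 and PIK3R3, and the other neighbours do not. In the combination PIK3R1 was first, at 118 ± 6.46 TPM, ahead of DEPTOR at 60.5 ± 1.79 and PIK3R3 at 52.7 ± 1.10. AKT1 went from the rank of 2 in DMSO to 6 in the combination, at 38.2 ± 1.94 TPM. The order depends on the length used, since a gene can be given the length of all its exons or of 1 transcript. With the length of the Ensembl canonical transcript, a choice made after the data were seen, AKT1, AKT2 and PIK3CB held ranks 1, 2 and 3 in DMSO, PIK3R3 rank 4 and DEPTOR rank 5. In the combination that length put PIK3R1 first, AKT1 at rank 2 and DEPTOR at rank 5, so the fall of AKT1 from rank 2 to 6 holds for the deposited length only.

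The genes whose log2 CPM ran most like each of the 9 over the 12 libraries are given as a description. The points are 4 arms of 3 libraries, so that a likeness can come from the arm means alone. For PIK3R1 they were SYT4 (Pearson r = 0.998) and ATP1B1 (0.996), for PIK3R3 ROBO1 (0.989) and SLC44A2 (0.983), for PIK3CA RABGAP1L (0.995) and SCAF8 (0.986), and for PIK3CB PFKM (0.986) and RAPGEFL1 (0.984). AKT1 ran most like CSTF2 (0.991) and SREBF1 (0.988), AKT2 like LRP5 (0.967) and EEF1A2 (0.965), TSC1 like ATG13 (0.985) and SNX33 (0.984), DEPTOR like NOMO1 (0.931) and FOXJ3 (0.922), and MTOR like TAF13 (0.927) and WDR33 (0.923). No gene was in the lists of more than 1 of the 9.

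Around these 9 genes, 98 other genes of the pathway were listed in 12 roles, and 88 passed the filter. AKTi changed 46 of the 88 (26 higher, 29.5%, and 20 lower, 22.7%, against 20.6% and 21.9% of all genes). EZH2i changed 57 (35 higher, 39.8%, and 22 lower, 25%, against 32.6% and 31.5%) and the combination 71 (40 higher, 45.5%, and 31 lower, 35.2%, against 38.0% and 35.2%). The shares of lower genes with AKTi and in the combination were thus close to or equal to those of all genes. Their median log2 fold change in the combination was 0.10, against 0.06 over all genes. The roles are given next by their counts and their extreme genes. For each arm these counts are to be read against the shares of all genes just given, and no role was tested as a set.

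**Figure D5:**
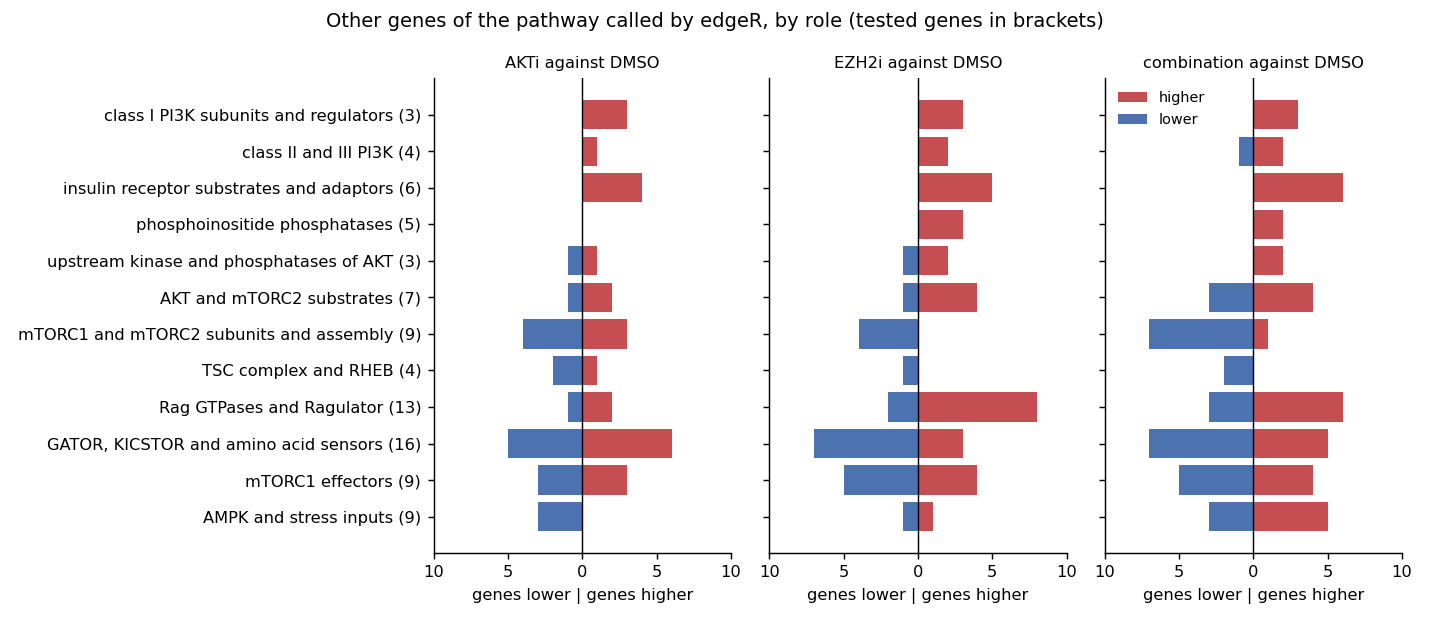
Number of other pathway genes higher (right of 0) or lower (left of 0) by edgeR at an adjusted p-value under 0.05, by role, for AKTi, EZH2i and the combination against DMSO; the number tested is in brackets. In the combination all 6 insulin receptor substrates and adaptors were higher and 7 of 9 mTOR complex subunits and assembly factors were lower. Of the 6, IRS4 passed the filter on low counts only through its combination libraries.

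Of the 3 tested class I PI3K genes outside the 9, PIK3CD, PIK3AP1 and PIK3IP1, all were higher in each treated arm. Over all genes 20.6% were higher with AKTi, 32.6% with EZH2i and 38.0% in the combination. PIK3IP1, a membrane protein that inhibits the catalytic subunits, was at 6.38 ± 0.880 CPM in DMSO, 22.9 ± 0.370 with AKTi, 35.7 ± 5.64 with EZH2i and 103 ± 3.91 in the combination, with log2 fold changes of 1.86, 2.50 and 4.03. Of the 6 insulin receptor substrates and adaptors, which recruit PI3K to receptors, 4 rose with AKTi, 5 with EZH2i and 6 in the combination. Among the 6, IRS4 was near the floor and passed the filter on low counts only through its combination libraries. It had 33, 22 and 47 counts there and 5, 0 and 8 in DMSO, so its rise adds little to the count of 6. IRS2 was at 1.73 ± 0.272, 12.5 ± 2.01, 4.72 ± 0.672 and 43.98 ± 1.28 CPM in the 4 arms in the same order, and rose by 2.84, 1.44 and 4.65 in log2. GAB2, a docking protein, rose by 1.64 with EZH2i and 3.28 in the combination. IRS2 had the larger single-agent rise with AKTi, with EZH2i lower than AKTi by 1.39 (adjusted p = 1.4e-10), and PIK3IP1 with EZH2i, which exceeded AKTi by 0.64 (adjusted p = 3.9e-07).

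Of the 4 tested class II and III PI3K genes, 2 were higher and 1 lower in the combination, against 38.0% and 35.2% of all genes. PIK3C3, the class III kinase of autophagy, rose by 0.45, 0.30 and 0.42 in AKTi, EZH2i and the combination, and PDPK1, the kinase upstream of AKT, by 0.26, 0.25 and 0.45. PDPK1 was listed with phosphatases of AKT, and 2 of these 3 genes were higher in the combination. PHLPP1, such a phosphatase, was at 27.7 ± 2.97 CPM in DMSO, 27.6 ± 4.19 with AKTi, 33.3 ± 2.31 with EZH2i and 41.0 ± 1.43 in the combination. PHLPP2, another, was at 25.5 ± 2.21, 20.7 ± 0.818, 19.9 ± 1.52 and 24.5 ± 1.22 CPM in the same order. None of the 5 phosphoinositide phosphatases tested passed with AKTi. With EZH2i 3 were higher and in the combination 2, against 32.6% and 38.0% of all genes. INPP4B, which dephosphorylates a product of PIP3, rose by 0.85 with EZH2i and 1.79 in the combination.

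Of the 9 tested subunits and assembly factors of the mTOR complexes, 3 were higher and 4 lower in AKTi, 0 higher and 4 lower in EZH2i, and 1 higher and 7 lower in the combination. The gene that rose in the combination was RICTOR, the defining subunit of mTORC2, at 30.1 ± 2.06 CPM in DMSO, 29.1 ± 2.49 with AKTi, 33.5 ± 3.57 with EZH2i and 58.6 ± 6.28 in the combination, a log2 fold change of 0.96 (adjusted p = 3.8e-12). TELO2 and TTI1, chaperone partners that assemble mTOR and related kinases, fell by 1.60 and 0.72. RHEB, the GTPase that activates mTORC1, fell by 0.45 with AKTi, 0.41 with EZH2i and 0.73 in the combination. Of the 13 Rag GTPase and Ragulator genes, which place mTORC1 on the lysosome, 6 were higher and 3 lower in the combination. Over all genes 38.0% were higher and 35.2% lower in that arm. RRAGD rose by 2.08 and FNIP2 by 1.44, whereas LAMTOR4 fell by 0.63.

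Among the 16 tested genes of the amino acid sensing branch, the sestrins moved apart from the GATOR subunits in the combination, with 5 higher and 7 lower in all. The counts here and below are for the combination, where 38.0% of all genes were higher and 35.2% lower. SESN1 rose by 0.61 with AKTi, 2.66 with EZH2i and 3.22 in the combination, and SESN3 by 0.65, 1.90 and 1.84. SESN2 fell by 0.46 with AKTi and was at 108 ± 3.77 CPM in the combination against 46.4 ± 3.08 in DMSO. SEH1L and SEC13, subunits shared by GATOR2 and the nuclear pore or coat complexes, fell by 1.46 and 1.04 in the combination. Of the 9 mTORC1 effectors, 4 were higher and 5 lower in the combination. EIF4E, the cap-binding factor, fell by 0.67, 0.95 and 1.60 across AKTi, EZH2i and the combination, and RPS6KB2 by 0.41, 0.65 and 1.34, while ULK1, which starts autophagy, rose by 0.63, 1.34 and 1.36. Of the 9 tested AMPK and stress genes, 5 were higher and 3 lower in the combination, with DDIT4L, a mTORC1 inhibitor, down by 1.46 and PRKAA2, a catalytic subunit of AMPK, up by 0.91. Of the 7 tested AKT and mTORC2 substrates, 4 were higher and 3 lower in the combination. SGK1 fell by 0.61 with AKTi and rose by 2.16 with EZH2i. It was at 2.60 ± 0.261 CPM in DMSO, 1.69 ± 0.221 with AKTi, 11.6 ± 0.938 with EZH2i and 4.88 ± 0.501 in the combination. TBC1D1 rose by 1.09 in the combination, and SGK3 fell by 0.89 with EZH2i and 0.49 in the combination. The luminal marker sum given above, which mostly follows KLK3, also differs between arms, and its part in these values was not tested.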

How the data were processed

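Polyadenylated RNA of C4.2B cells was sequenced in 4 arms of 3 libraries. The authors aligned reads to hg38 with STAR and counted them on genes with HTSeq, and they deposited raw counts for 58735 genes with a gene length. The second deposited table holds signal values, the authors' DESeq2-normalized counts, which were the counts over a single library factor for all of 56994 names checked and were not used further. Versions, annotation and strand setting are not given in the sources used here. The study names 2 sequencing providers without saying which library went to which, and no batch term was fitted.

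Counts were filtered with filterByExpr (minimum count 10, minimum total 15), scaled by TMM and fitted with edgeR 4.0.16 in R 4.3.3 by quasi-likelihood with 1 mean per arm over 12 libraries. P-values were adjusted by Benjamini-Hochberg over 16646 genes, with a threshold of 0.05. CPM values are TMM-scaled. The alternatives were DESeq2 1.42.0, other scalings and filters, a replicate block, leaving out each library, and fits on the 6 libraries of a comparison. Ratios were tested with scipy 1.17.1. Scripts were tested on simulated counts.

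The 9 genes and the lists were chosen with earlier results of these data known. A few genes of the pathway and marker lists are not reported here, and the counts and sums leave them out. The text names all 9 genes and, for each other role, the called genes with the highest and lowest log2 fold change (at most 2 per direction). It also names the 2 protein-coding genes most correlated with each of the 9, and genes that share exonic bases with them. Those not given above lie on the opposite strand, with at most 11 counts per library. They are AL583722.2 for AKT1 (6.05% of exonic bases), AP005717.1 for DEPTOR (9.59%), ANGPTL7 and MTOR-AS1 for MTOR (1.13% and 1.65%) and GFI1B for TSC1 (1.98%). Exon overlaps and canonical lengths come from GENCODE v44, and promoter sequences from RefSeq.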

Additional observations from a re-analysis of the deposited data

Results flagged for a closer look

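The results below were singled out because the effect of 1 agent differed with the other, by an interaction in edgeR with an adjusted p-value under 0.05. Among the 9 genes these were AKT1 (-0.35 in log2), AKT2 (-0.44), PIK3CB (-0.43) and PIK3R3 (-1.19). Their values in each arm are given in the report.

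Of the 88 other pathway genes tested, 16 had a positive and 19 a negative interaction (18.2% and 21.6%, against 10.7% and 17.5% of all genes). The genes with the highest and lowest value in each role follow. Upstream of AKT they were PIK3CD (-0.39), PIK3C2A (0.25), PIK3C2B (-0.40), GAB2 (1.19), GRB10 (-0.20), INPP4B (0.56) and PHLPP2 (0.59). Among AKT substrates and the mTOR complexes they were SGK3 (0.50), RICTOR (0.86), AKT1S1 (-0.45) and TSC2 (-0.45). In the lysosomal and amino acid branches they were FNIP2 (0.48), FLCN (-0.44), SESN2 (1.98) and KPTN (-0.74). Among effectors and stress inputs they were EIF4EBP1 (1.09), PDCD4 (-1.27), DDIT4 (1.43) and DDIT4L (-1.41). SESN2 and DDIT4, both stress-induced inhibitors of mTORC1, fell with AKTi, by 0.46 and 0.49, and rose in the combination, by 1.21 and 0.86. EIF4EBP1, the translation repressor released when mTORC1 is off, was at 162 ± 4.75 CPM in DMSO, 148 ± 2.90 with AKTi, 55.8 ± 5.27 with EZH2i and 108 ± 5.66 in the combination. PDCD4 was at 135 ± 14.1, 204 ± 10.4, 363 ± 27.0 and 228 ± 8.86 CPM in the same order. With 3 libraries per arm, no arm was large enough for a check of single outlying libraries.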

How the results depend on the processing

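Of 63 values (9 genes in 7 comparisons), 46 passed, and 36 of these passed under every alternative. The other 10 were lost in at least 1, and 1 of them, AKT2 in the combination against DMSO, turned positive, at 0.0592 by library size only and 0.0469 by upper quartile (the cause was not tested). No count of called genes, among the 9 or the 88, moved by more than 1.5 times. Scaling moved the balance of all genes. For EZH2i against DMSO, 5421 were higher and 5249 lower by TMM against 6630 and 4193 by library size only, for the combination against AKTi 5344 and 5343 against 6544 and 4330, and for EZH2i against AKTi 4226 and 4170 against 5104 and 3293. The following values had not passed and changed sign. PIK3R3 in AKTi against DMSO was 0.0443 by library size only and 0.0442 by upper quartile. MTOR in EZH2i against DMSO was 0.138 and 0.112 by these scalings and 0.0274 with 10 counts in every library. The TSC1 interaction was 0.00436 with DESeq2, 0.00487 by upper quartile, 0.00484 with DESeq2 size factors and 0.0291 with 10 counts in every library. With 1 library left out, values that crossed 0 ranged from -0.0253 to 0.0962 for DEPTOR and -0.102 to 0.0675 for PIK3R3 in AKTi against DMSO, -0.0220 to 0.0732 for AKT2 and -0.0967 to 0.00886 for MTOR in EZH2i against DMSO, -0.0406 to 0.0780 for PIK3R1 and -0.192 to 0.00386 for DEPTOR in the combination against EZH2i, -0.00597 to 0.0882 for MTOR and -0.00310 to 0.134 for TSC1 in EZH2i against AKTi, and -0.122 to 0.217 for PIK3CA and -0.0585 to 0.101 for TSC1 in the interaction. Libraries with the same letter did not deviate together (r of -0.058 to 0.069 over 18 pairs). This cannot show whether plates of the same letter were handled together, and the sources used here do not say what the letters mean. With a replicate block, 6, 7 and 9 of the 9 genes passed for AKTi, EZH2i and the combination against DMSO, the additional gene being DEPTOR (0.18), and no other call among the 9 genes changed. The 3 libraries per arm, 1 line, 1 time point and unknown strand setting limit all values.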
